A study of Homo sapiens with 16 samples.

Results

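The genes described here are 10 components of cytokine receptor signalling in T cells, taken by name from the 64252 gene identifiers in each table. They are the receptor chains IL7R, IL2RG and IL4R, the kinases JAK1 and JAK3, the transcription factors STAT5A and STAT5B, the feedback inhibitors SOCS2 and CISH, and the target kinase PIM1. All 10 were found, and all 10 passed the filter on low counts in every fit. RNA had been sequenced in Jurkat and 6T-CEM, established human lines of T-cell acute lymphoblastic leukaemia (T-ALL). The cells had been given either a control hairpin RNA (sh-NC) or a hairpin against SH2D1A (sh-SH2D1A, called the knockdown arm), the gene of the adaptor protein SAP, which binds the tails of SLAM family receptors. Days 8 and 10 were taken for Jurkat and days 5 and 10 for 6T-CEM, with 2 libraries for each line, day and shRNA, which made 16 libraries in 8 groups. The sources used here give neither the event from which the days were counted nor the sequence of the hairpin. One hairpin name stands for the knockdown, so effects of the hairpin itself and of lower SH2D1A cannot be told apart.

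Interleukin-7 binds a receptor made of the IL7R chain and the common gamma chain, which IL2RG encodes. JAK1 is bound to IL7R and JAK3 to the gamma chain, and the activated kinases phosphorylate STAT5A and STAT5B, which dimerise and bind DNA at motifs spelled TTCNNNGAA. IL4R pairs with the same gamma chain but signals mainly through another STAT protein. CISH and SOCS2 are SH2-domain proteins that STAT5 induces and that dampen the receptor in turn, and PIM1 is a serine/threonine kinase whose gene is a classical STAT5 target. In early T cells the pathway supports survival and growth, and it is active in part of T-ALL.

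The promoters of 3 of these genes are shown because they differ in matches to the STAT5 motif or to a string of wider spacing. The sequences are RefSeq's (GRCh38.p14), 5′ to 3′ on the gene's own strand, and hold the bases before the RefSeq transcription start that lie in no annotated exon of the gene. Capitals mark matches to TTCNNNGAA or to the wider spacing TTCNNNNGAA, both of which read the same on either strand. The stretches are chr3:50611832-50612024 (minus strand) for CISH, chr17:42287189-42287438 (plus strand) for the first of 3 STAT5A starts, and chr6:37169902-37170151 (plus strand) for PIM1.
CISH: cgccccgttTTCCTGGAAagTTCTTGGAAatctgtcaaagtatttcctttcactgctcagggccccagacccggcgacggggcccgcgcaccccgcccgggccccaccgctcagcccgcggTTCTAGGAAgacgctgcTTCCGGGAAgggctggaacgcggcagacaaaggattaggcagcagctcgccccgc
STAT5A: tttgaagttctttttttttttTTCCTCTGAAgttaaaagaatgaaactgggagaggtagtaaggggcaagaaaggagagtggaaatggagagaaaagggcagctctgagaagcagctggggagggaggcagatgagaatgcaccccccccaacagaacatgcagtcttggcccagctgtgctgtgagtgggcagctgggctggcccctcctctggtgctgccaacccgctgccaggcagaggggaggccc
PIM1: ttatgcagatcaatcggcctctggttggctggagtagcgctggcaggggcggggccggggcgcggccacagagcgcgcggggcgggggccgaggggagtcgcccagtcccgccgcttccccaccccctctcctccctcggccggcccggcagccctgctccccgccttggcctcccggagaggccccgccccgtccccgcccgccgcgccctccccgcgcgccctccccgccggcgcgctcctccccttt
The CISH promoter held 4 matches to TTCNNNGAA, at -241 to -233, -230 to -222, -129 to -121 and -112 to -104 from the start. The STAT5A stretch held 1 match to TTCNNNNGAA, at -229 to -220, and no match to TTCNNNGAA. No match to either spelling lay in the 300-base windows of PIM1, IL7R, IL2RG, IL4R, JAK1, JAK3 and STAT5B or of the other STAT5A starts. SOCS2 was not in the promoter table. Among 35116 promoters of that length, 7.66% held TTCNNNGAA, 6.44% held TTCNNNNGAA and 13.5% held either. A match is a string of letters and no measure of binding.

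Total counts ranged from 27217899 to 33788024 per library, so 3 counts, the limit that a count of 0 allows, corresponded to between 0.0888 and 0.110 CPM (counts scaled to a common library total). The lowest count of any of the 10 genes was 59, for STAT5A in a 6T-CEM library. SH2D1A itself lay between 154 and 204 CPM in the sh-NC libraries and between 49.4 and 80.8 CPM in the sh-SH2D1A libraries. Its log2 fold changes were -1.72 (day 8) and -1.60 (day 10) in Jurkat and -1.71 (day 5) and -0.996 (day 10) in 6T-CEM. All 8 T cell markers were present, with a summed level of 1120 to 2396 CPM with sh-NC and 1141 to 2136 with sh-SH2D1A. In the mean change 6 of these 8 passed as lower and 1 as higher with sh-SH2D1A, where 12.3% and 10.7% of all genes did. The part of these markers in the results was not tested. Summed markers of myeloid cells did not exceed 3.13 CPM and those of epithelial and packaging cells 5.73 CPM, with KRT7 at 0 in every library. The B cell list reached 74.9 CPM, of which CD79A alone gave up to 74.0, and 4 of its 6 markers, MS4A1, PAX5 and CD22 among them, stayed under 1 CPM. The erythroid list reached 16.6 CPM, nearly all of it EPOR. The 6T-CEM day 5 sh-SH2D1A libraries stood apart in mitochondrial transcripts, which took 7.98% and 9.19% of their counts against 7.44% and 7.63% in the sh-NC libraries of that day. In bulk libraries fewer cells of a type and less RNA per cell cannot be told apart, and nothing in the labels says that the replicates were separate cultures, so p-values measure the spread between these libraries, which may be technical.

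**Figure D1:**
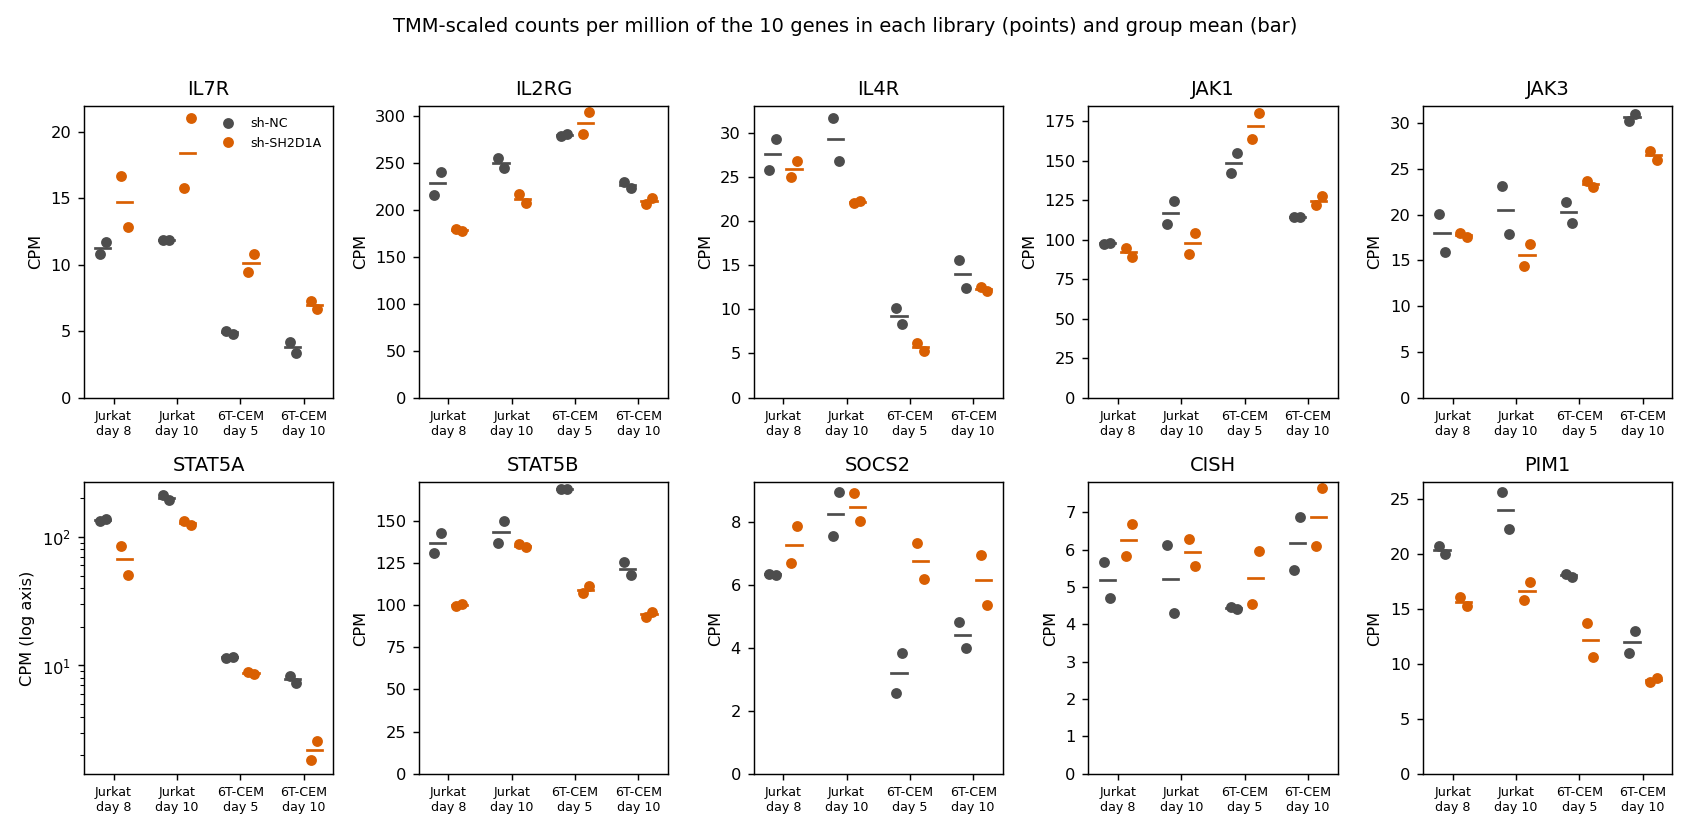
Level of each of the 10 genes in every library as TMM-scaled CPM (vertical axis, linear except for STAT5A, which has a log axis), by line and day, with sh-NC in grey and sh-SH2D1A in orange; points are libraries and short bars are group means. IL7R lies higher and STAT5A, STAT5B and PIM1 lie lower with sh-SH2D1A in all 4 tables, and STAT5A runs from 209 CPM in a Jurkat library down to 1.83 CPM in a 6T-CEM library.

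Averaged over the 4 comparisons, IL7R and SOCS2 rose while both STAT5 genes, PIM1, IL2RG and IL4R fell. IL2RG was not lower in each of them, with a log2 change of 0.07 ± 0.11 at 6T-CEM day 5. In the mean of the 4 log2 changes, 7 of the 10 genes passed an adjusted p of 0.05 with edgeR, 2 higher and 5 lower, where 23% of all 22032 genes tested did so (10.7% higher and 12.3% lower). The 10 genes had been chosen with earlier results of these data known, so this count carries no test against that share. The mean log2 changes were -0.97 ± 0.10 for STAT5A (standard error, adjusted p = 6.32e-06), -0.38 ± 0.03 for STAT5B (adjusted p = 1.79e-06) and 0.74 ± 0.09 for IL7R (adjusted p = 4.99e-05). In linear terms STAT5A stood at 0.510 of its control level, STAT5B at 0.767, and IL7R at 1.67. PIM1 changed by -0.49 ± 0.07 (adjusted p = 0.000175), IL4R by -0.34 ± 0.07 (adjusted p = 0.00375), IL2RG by -0.16 ± 0.03 (adjusted p = 0.00252) and SOCS2 by 0.45 ± 0.11 (adjusted p = 0.00857). The changes of CISH (0.21 ± 0.11, adjusted p = 0.204), JAK3 (-0.10 ± 0.07, adjusted p = 0.327) and JAK1 (-0.0026 ± 0.04, adjusted p = 0.995) did not pass. The median change was -0.13 over the 10 genes and 0.0051 over all genes tested. Without 6T-CEM day 5 the count was 5, where 3179 of all genes passed. IL4R (-0.23, adjusted p = 0.0886) and SOCS2 (0.24, adjusted p = 0.240) no longer passed with edgeR, so these 2 calls rest on that table. The part of its higher mitochondrial share in them was not tested.

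For 4 of the 10 genes the libraries of the arms did not overlap, in the same direction, in all 4 tables. IL7R was higher in each, and STAT5A, STAT5B and PIM1 were lower in each. Within each table alone, 8 of the 10 genes had separate arms in Jurkat at day 8, 8 at day 10, 9 in 6T-CEM at day 5 and 8 at day 10, where 57.5%, 48.7%, 48.6% and 56.8% of all genes had. Among 17521 genes tested in all 4 tables, 11% had arms separate in 1 direction in all 4, 4.21% higher and 6.75% lower. STAT5A and STAT5B each passed the test in 3 of the 4 single comparisons, as did 2.6% of those genes (7.43% passed in at least 2), and IL2RG and IL7R in 1 each.

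**Figure D2:**
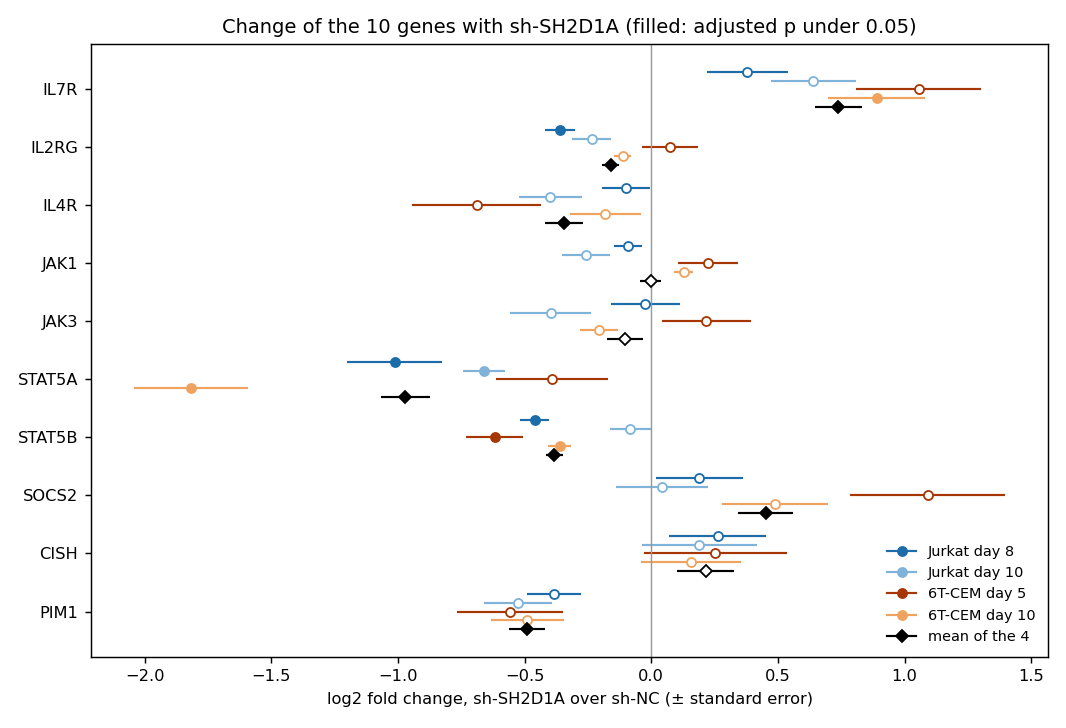
Log2 fold change of each gene with sh-SH2D1A over sh-NC (horizontal axis) in the 4 comparisons and in their mean (black diamonds); lines are ± 1 standard error and filled symbols have an adjusted p under 0.05. All 5 IL7R symbols lie right of 0, all STAT5A, STAT5B and PIM1 symbols lie left of it, and JAK1 lies left of 0 in Jurkat and right of it in 6T-CEM.

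The receptor chain IL7R (ENSG00000168685, chromosome 5, 35852695 to 35879603, plus strand, hg38) was low in both lines, with at most 613 counts in a library. In Jurkat at day 8 the controls had 10.8 and 11.7 CPM and the knockdown libraries 16.6 and 12.8. At day 10 the controls had 11.9 and 11.8 CPM and the knockdown libraries 15.8 and 21.1. Both sh-SH2D1A libraries exceeded both sh-NC libraries at each day, although those 2 libraries differed from each other by more than the sh-NC libraries did. The log2 changes of 0.38 ± 0.16 (adjusted p = 0.167) and 0.64 ± 0.17 (adjusted p = 0.0676) did not pass with edgeR, and the day 10 change passed with DESeq2 (adjusted p = 0.024). In 6T-CEM at day 5 the values were 5.04 and 4.77 CPM against 9.45 and 10.8, a log2 difference of 1.06 ± 0.25 (adjusted p = 0.0683; 0.011 with DESeq2 and 0.00212 in the fit of all 16 libraries). At day 10 they were 4.18 and 3.36 CPM against 7.28 and 6.65, a rise of 0.89 ± 0.19 (adjusted p = 0.0185), or 1.85-fold. The arms were separate at both 6T-CEM days, and the day 10 knockdown libraries of this line stayed below every Jurkat library. The day 10 call was lost without sh-NC replicate 2 (adjusted p = 0.0748), without sh-SH2D1A replicate 1 (adjusted p = 0.0692) and with no filter on low counts (adjusted p = 0.0895).

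IL2RG, the gamma chain that IL7R and IL4R share (ENSG00000147168, chromosome X, 71107404 to 71112108, minus strand), fell in Jurkat at day 8. Controls had 216 and 240.4 CPM and knockdown libraries 179 and 178, a difference of -0.36 ± 0.06 (adjusted p = 0.0098). At Jurkat day 10 the levels were 255 and 244 CPM against 216 and 207, for a log2 difference of -0.24 ± 0.08 (adjusted p = 0.132). The arms were separate at both Jurkat days. In 6T-CEM the libraries had 278 and 281 CPM with sh-NC against 281 and 304 at day 5, where the arms overlapped, and 229.9 and 223 against 206 and 212 at day 10. Neither 6T-CEM change passed with edgeR, at 0.07 ± 0.11 (adjusted p = 0.792) and -0.11 ± 0.03 (adjusted p = 0.0644). With DESeq2 the day 10 change passed in 6T-CEM (adjusted p = 0.0162) and in Jurkat (adjusted p = 0.0496). The day 8 call was lost without either sh-SH2D1A library (adjusted p = 0.0643 without replicate 1 and 0.0898 without replicate 2) and with no filter (adjusted p = 0.0587). Over the 6T-CEM days alone the mean change was -0.03 (adjusted p = 0.776). An overlapping read-through transcript on the same strand shares 49% of the 50-base stretches of IL2RG. The counts held no entry for its gene, so that gene could not be analysed here.

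IL4R, the chain that binds interleukin-4 (ENSG00000077238, chromosome 16, 27313668 to 27364778, plus strand), did not pass in any table fitted alone. In Jurkat it stood at 25.8 and 29.3 CPM with sh-NC against 24.97 and 26.7 in the knockdown arm at day 8, and at 31.7 and 26.7 against 22.01 and 22.3 at day 10. In 6T-CEM it stood at 10.2 and 8.32 CPM against 6.12 and 5.28 at day 5, and at 15.6 and 12.4 against 12.5 and 12.1 at day 10. The arms were separate at Jurkat day 10 and 6T-CEM day 5 and overlapped at the other 2. The log2 changes were -0.10, -0.40, -0.69 and -0.18 in that order, with adjusted p-values from 0.111 to 0.549. In the fit of all 16 libraries the 6T-CEM day 5 change passed (adjusted p = 0.00907).

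The receptor-bound kinases showed no call with edgeR in any of the 4 tables fitted alone. JAK1 (ENSG00000162434, chromosome 1, 64833229 to 64966504, minus strand), the kinase on the IL7R chain, had 97.4 and 98.0 CPM with sh-NC against 94.9 and 89.3 with sh-SH2D1A in Jurkat at day 8. At Jurkat day 10 the values were 109.9 and 124 CPM against 91.2 and 104. In 6T-CEM they were 142 and 155 CPM against 164 and 180.1 at day 5, and 115 and 114 against 122 and 127 at day 10. The sh-SH2D1A libraries were thus the lower pair in Jurkat and the higher pair in 6T-CEM, with log2 changes of -0.09 and -0.26 against 0.22 and 0.13 and adjusted p-values from 0.068 to 0.383. The Jurkat minus 6T-CEM difference at day 10 was -0.39 ± 0.12 (unadjusted p = 0.00575, adjusted p = 0.221). With the DESeq2 Wald test the 6T-CEM day 10 change passed (adjusted p = 0.0413).

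JAK3, the gamma chain kinase (ENSG00000105639, chromosome 19, 17824780 to 17848071, minus strand), had 20.1 and 15.9 CPM with sh-NC in Jurkat at day 8 and 18.0 and 17.6 with sh-SH2D1A, which lay between the controls. At Jurkat day 10 it had 23.1 and 17.9 CPM against 14.4 and 16.8. In 6T-CEM it had 21.4 and 19.1 CPM against 23.7 and 23.0 at day 5 and 30.3 and 31.1 against 27.0 and 26.0 at day 10. The arms were separate in the last 3 of these tables but not in 1 direction. The log2 changes were -0.02, -0.40, 0.22 and -0.21, with adjusted p-values from 0.113 to 0.938.

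STAT5A (ENSG00000126561, chromosome 17, 42287547 to 42311943, plus strand) had the largest change among the 10 genes in the 4-comparison mean. In Jurkat at day 8 controls had 133 and 138 CPM and knockdown libraries 84.1 and 50.9. Both sh-SH2D1A libraries were lower, and they differed from each other more than the controls did. The log2 change was -1.01 ± 0.19 (adjusted p = 0.0141). At Jurkat day 10 STAT5A had 209 and 194 CPM against 133 and 122, or -0.66 ± 0.08 (adjusted p = 0.0023). In 6T-CEM, where the gene was far lower, the day 5 levels were 11.4 and 11.7 CPM against 8.85 and 8.64, and their difference of -0.39 ± 0.22 did not pass (adjusted p = 0.412). At day 10 the controls had 8.29 and 7.32 CPM (246 and 233 counts) and the knockdown libraries 1.83 and 2.59 (59 and 86 counts). That was a fall of -1.82 ± 0.22 (adjusted p = 0.00133), to 0.284 of the control level. Without each library in turn the 6T-CEM day 10 change lay between -2.09 and -1.59. Without the filter on low counts neither Jurkat call held with edgeR (adjusted p = 0.0897 at day 8 and 0.177 at day 10). That setting called 0 of all genes at Jurkat day 10, so the loss there is not particular to STAT5A.

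STAT5B (ENSG00000173757, chromosome 17, 42199168 to 42276707, minus strand), which lies beside STAT5A on the other strand, was lower with sh-SH2D1A by a smaller amount. In Jurkat at day 8 controls had 131 and 143 CPM and knockdown libraries 99.2 and 101, for -0.46 ± 0.06 (adjusted p = 0.00337). At Jurkat day 10 the levels were 137 and 150 CPM against 136 and 134. The arms there were separate by less than the controls differed from each other, and the change of -0.08 ± 0.08 did not pass (adjusted p = 0.656). In 6T-CEM the day 5 levels were 168.96 and 168.51 CPM against 107 and 111, which is -0.62 ± 0.11 on the log2 scale (adjusted p = 0.0285). The day 10 levels were 125 and 118 CPM against 92.9 and 95.8, for -0.36 ± 0.04 (adjusted p = 0.0013). Both 6T-CEM days thus had separate arms. The day 5 call was lost without sh-NC replicate 1 (adjusted p = 0.286) or replicate 2 (adjusted p = 0.317) of that day. STAT5A shares 8.61% of its 50-base stretches with STAT5B, and STAT5B 7.81% with STAT5A, so part of their reads could be assigned to either.

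Per kb of exon, STAT5A made up 52.0 to 63.2% of the summed STAT5A and STAT5B level in the Jurkat sh-NC libraries and 36.1 to 52.2% in the Jurkat sh-SH2D1A libraries. In 6T-CEM the share was 6.51 to 7.23% with sh-NC. With sh-SH2D1A it was 7.997 and 8.48% at day 5 and 2.16 and 2.94% at day 10. STAT5A was thus the larger part in Jurkat controls and a minor part in every 6T-CEM library, and its share with sh-SH2D1A lay above the controls at 6T-CEM day 5 and below them at day 10.

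Of the feedback inhibitors, SOCS2 (ENSG00000120833, chromosome 12, 93569814 to 93583487, plus strand) passed in the 4-comparison mean but in no table fitted alone. In 6T-CEM at day 5 the controls had 2.55 and 3.85 CPM (75 and 104 counts) and the knockdown libraries 7.33 and 6.19 (218 and 164 counts). At day 10 it had 4.82 and 3.99 CPM against 6.97 and 5.35. The arms were separate at both days, and the changes of 1.09 ± 0.31 (adjusted p = 0.111) and 0.49 ± 0.21 (adjusted p = 0.171) did not pass, while the day 5 change passed in the fit of all 16 libraries (adjusted p = 0.00579). In Jurkat SOCS2 had 6.37 and 6.33 CPM against 6.70 and 7.88 at day 8, and 7.55 and 8.95 against 8.93 and 8.04 at day 10, with changes of 0.19 and 0.04 and overlapping arms at day 10. The antisense gene SOCS2-AS1 shares 277 exon bases with SOCS2 and had on average 40.7 counts against 191. Its changes were 1.44 ± 0.64 (adjusted p = 0.296) and -0.70 ± 0.45 (adjusted p = 0.358) at 6T-CEM days 5 and 10. The strand setting of the counting is not given, so reads over the shared bases cannot be told apart. SOCS2 has 6776 exon bases in all.

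CISH (ENSG00000114737, chromosome 3, 50606490 to 50611831, minus strand), whose promoter held the 4 motif matches, did not pass in any comparison. Jurkat libraries had 5.67 and 4.70 CPM with sh-NC against 5.83 and 6.68 with sh-SH2D1A at day 8, and 6.12 and 4.30 against 6.30 and 5.56 at day 10. 6T-CEM libraries had 4.46 and 4.40 CPM against 4.54 and 5.96 at day 5, and 5.46 and 6.88 against 6.10 and 7.64 at day 10. The group means were higher with sh-SH2D1A in each table, and the libraries overlapped at day 10 in both lines. The log2 changes were 0.26, 0.19, 0.25 and 0.16, each smaller than 1.5 times its standard error. MAPKAPK3, on the other strand, shares 218 exon bases with CISH at a mean count of 3097 against 171, and its changes lay between -0.09 and 0.03.

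PIM1 (ENSG00000137193, chromosome 6, 37170203 to 37175426, plus strand) was lower with sh-SH2D1A in all 4 tables. Controls had 20.7 and 19.96 CPM against 16.1 and 15.2 in Jurkat at day 8, and 25.7 and 22.3 against 15.8 and 17.4 at day 10. In 6T-CEM they had 18.2 and 17.9 CPM against 13.7 and 10.6 at day 5, and 11.01 and 12.97 against 8.33 and 8.72 at day 10. The arms were separate throughout, by changes of -0.38 ± 0.11, -0.53 ± 0.13, -0.56 ± 0.21 and -0.49 ± 0.14. None passed with edgeR where each table was fitted alone, at adjusted p-values of 0.0548, 0.0594, 0.217 and 0.0583, and those of Jurkat day 10 (adjusted p = 0.0259) and 6T-CEM day 10 (adjusted p = 0.0296) passed with DESeq2. In the edgeR fit of all 16 libraries the 6T-CEM day 5 change passed as well (adjusted p = 0.0163).

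By comparison, 3 of the 10 genes passed in Jurkat at day 8 (STAT5A, STAT5B and IL2RG, all lower), where 12.4% of all genes tested passed and 7.13% of all genes tested passed as lower. At Jurkat day 10 STAT5A alone passed, as lower, against 3.78% of all genes (2.52% lower). At 6T-CEM day 5 STAT5B alone passed, as lower, against 2.11% (1.51% lower). At 6T-CEM day 10 IL7R passed as higher and STAT5A and STAT5B as lower, against 14% of all genes, 6.61% higher and 7.42% lower. These counts moved with the tool: the DESeq2 Wald test gave 3, 4, 2 and 6 of the 10, and 2626, 1052, 1118 and 3330 of all genes. With no filter on low counts edgeR gave 1, 0, 1 and 2 of the 10, and 873, 0, 324 and 1099 of all genes.

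The 4 changes were also compared with one another in a fit over all 16 libraries. No gene of the 10 passed in the Jurkat minus 6T-CEM difference of the change at day 10 with edgeR, where 0.812% of all genes did. At an unadjusted p under 0.05, 3 of the 10 differed between the lines. No share of all genes was counted at that threshold, here or for the day differences below. STAT5A passed with DESeq2, where 443 of all genes did. The STAT5A difference was 1.15 ± 0.29 (adjusted p = 0.112; 0.00159 with DESeq2), which places the deeper fall in 6T-CEM. With each library left out in turn this STAT5A difference lay between 0.905 and 1.41. Whether it passed with edgeR depended on which library was left out. Between days 5 and 10 of 6T-CEM, again 0 of 10 passed with edgeR against 0.681% of all genes. At an unadjusted p under 0.05 there were 3, and 1 passed by DESeq2, where 602 of all genes did. That 1 was STAT5A, whose change was lower at day 10 by -1.42 ± 0.32 (adjusted p = 0.0596; 8.64e-05 with DESeq2). With each library left out in turn this day difference of STAT5A lay between -1.67 and -1.17. It passed with edgeR in some of these fits and not in others. Between days 8 and 10 of Jurkat, 0 of 10 passed with edgeR (0.00454% of all genes) or DESeq2 (62 of all genes). STAT5B alone had an unadjusted p under 0.05 with edgeR (0.37 ± 0.10, adjusted p = 0.441). The knockdown itself also differed: the SH2D1A change was lower in Jurkat than in 6T-CEM at day 10 by -0.60 ± 0.13 (adjusted p = 0.0405) and less deep at day 10 than at day 5 of 6T-CEM by 0.72 ± 0.13 (adjusted p = 0.0181). Its part in the differences above was not tested. Tables of different lines and days may also differ in handling, which cannot be told apart from line and day here.

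**Figure D3:**
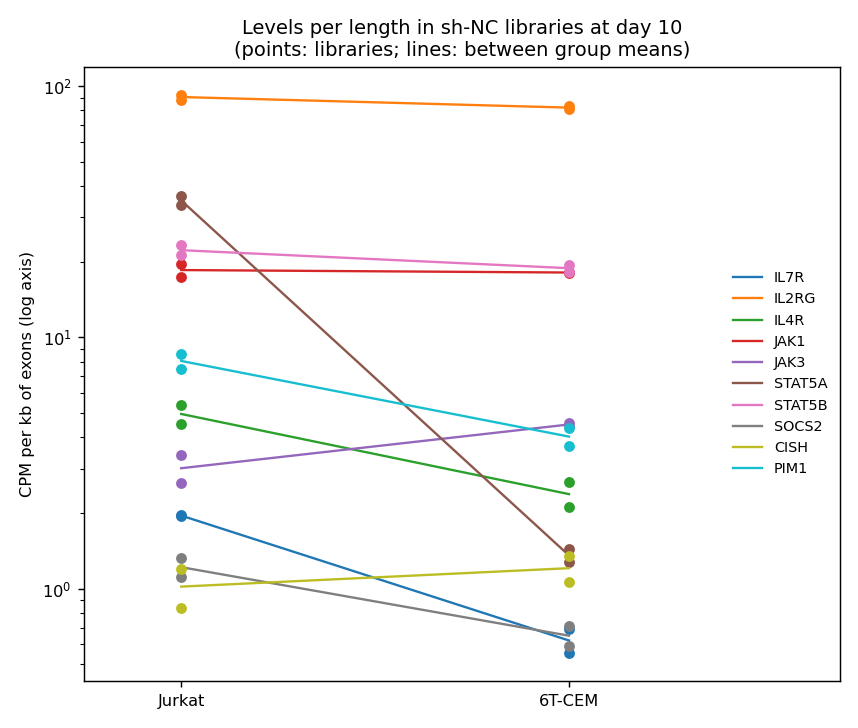
Level of the 10 genes per kb of exon in the sh-NC libraries at day 10 (vertical log axis, TMM-scaled CPM per kb), Jurkat on the left and 6T-CEM on the right; points are libraries and lines join the group means. STAT5A runs from 35.1 in Jurkat to 1.36 in 6T-CEM, while IL2RG and JAK1 stay nearly level.

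The control libraries of the lines differed in the make-up of the pathway. Per kb of exon, the order in Jurkat sh-NC at day 10 was IL2RG (90.5 CPM per kb), STAT5A (35.1), STAT5B (22.2), JAK1 (18.5), PIM1 (8.06), IL4R (4.96), JAK3 (3.02), IL7R (1.95), SOCS2 (1.22) and CISH (1.02). Only SOCS2 and CISH overlapped there. In 6T-CEM sh-NC at day 10 the order was IL2RG (82.1), STAT5B (18.9), JAK1 (18.1), JAK3 (4.50), PIM1 (4.03), IL4R (2.38), STAT5A (1.36), CISH (1.21), SOCS2 (0.65) and IL7R (0.62). STAT5A overlapped CISH in 6T-CEM, and SOCS2 overlapped IL7R. The gamma chain thus led in both lines, and the cytokine-binding chain IL7R was among the lowest.

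Between the sh-NC groups at day 10, 7 of the 10 genes differed between the lines with edgeR, where 36.6% of all genes did (18.4% higher in Jurkat and 18.2% lower). Higher in Jurkat were STAT5A, by 4.69 ± 0.20 on the log2 scale (adjusted p = 4.34e-10) or 25.9-fold, IL7R by 1.65 ± 0.19 (adjusted p = 1.08e-05), IL4R by 1.06 ± 0.15 (adjusted p = 5.45e-05) and PIM1 by 0.999 ± 0.14 (adjusted p = 7.21e-05). SOCS2 was higher by 0.91 ± 0.22 (adjusted p = 0.005) and STAT5B by 0.24 ± 0.07 (adjusted p = 0.0125), and JAK3 was lower by -0.58 ± 0.14 (adjusted p = 0.00476). The SOCS2 and STAT5B calls were each lost without replicate 2 of Jurkat (adjusted p = 0.0507 and 0.156) or of 6T-CEM (adjusted p = 0.0648 and 0.148), and the JAK3 call without Jurkat replicate 2 (adjusted p = 0.0698). IL2RG, JAK1 and CISH differed by 0.14, 0.03 and -0.24 and did not pass.

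In 6T-CEM controls the pathway also differed between days 5 and 10, by 7 of 10 genes with edgeR against 39.9% of all genes (19.3% higher at day 10 and 20.6% lower). IL4R (0.60 ± 0.15, adjusted p = 0.00538) and JAK3 (0.60 ± 0.14, adjusted p = 0.00335) were higher at day 10. STAT5B (-0.47 ± 0.07, adjusted p = 6.98e-05), PIM1 (-0.59 ± 0.14, adjusted p = 0.00401), JAK1 (-0.37 ± 0.08, adjusted p = 0.0024), IL2RG (-0.30 ± 0.07, adjusted p = 0.00185) and STAT5A (-0.57 ± 0.20, adjusted p = 0.0357) were lower. The calls of IL4R, STAT5A and PIM1 were lost in 2, 10 and 1 of the 16 fits with 1 library left out. Over those 16 fits the differences ran from 0.43 to 0.79, from -0.65 to -0.44 and from -0.68 to -0.47, in that order. In Jurkat controls 0 of 10 passed between days 8 and 10 with edgeR against 3.4% of all genes. At an unadjusted p under 0.05 there were 2, with no share of all genes counted at that threshold. STAT5A (0.57 ± 0.16, adjusted p = 0.0666 with edgeR) and JAK1 (0.26 ± 0.08, adjusted p = 0.109 with edgeR) passed with DESeq2, where 1561 of all genes did.

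**Figure D4:**
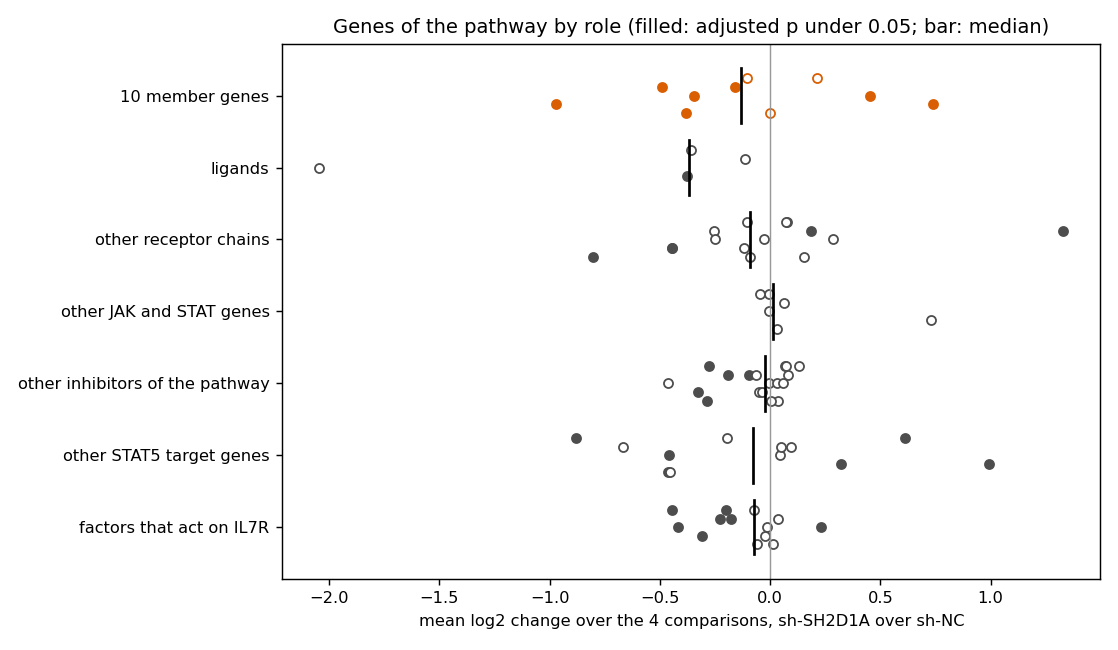
Mean log2 change over the 4 comparisons (horizontal axis) of the 10 genes (orange) and of 6 lists of other pathway genes (grey), 1 point per gene; filled points have an adjusted p under 0.05 and vertical bars are list medians. The 10 genes hold 7 filled points, 5 of them left of 0, and BCL2 is the lowest filled point among the other STAT5 target genes.

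The other genes of the pathway were read in 6 lists, whose counts in the 4-comparison mean stand beside the 23% of all genes that passed in it (10.7% higher and 12.3% lower). Of 12 other STAT5 target genes, 3 were lower and 3 higher in the 4-comparison mean, with a median change of -0.08 against 0.0051 over all genes. BCL2, the anti-apoptotic gene, fell in each comparison, by -0.56 ± 0.06 and then -0.55 ± 0.09 over the Jurkat days and by -1.25 ± 0.17 and then -1.16 ± 0.06 over the 6T-CEM days (adjusted p = 0.00205, 0.00709, 0.00976 and 1.47e-05). Its libraries ran from 45.6 to 82.9 CPM with sh-NC and from 21.0 to 58.5 with sh-SH2D1A. MCL1, another survival gene, changed by -0.46 ± 0.03 in the mean (adjusted p = 3.79e-07), and CCND3, the cyclin D3 gene, by -0.46 ± 0.06 (adjusted p = 5.24e-05). CCND2, which encodes cyclin D2, rose instead by 0.99 ± 0.16 (adjusted p = 0.000504), and FOXP3, a factor of regulatory T cells at a mean of 1.04 CPM, by 0.61 ± 0.20 (adjusted p = 0.0358). MYC rose by 0.32 ± 0.03 in the mean (adjusted p = 7.32e-06). Singly it rose by 0.47 ± 0.05 and 0.74 ± 0.08 in Jurkat (adjusted p = 0.0026 and 0.00076), and its 6T-CEM changes of 0.16 and -0.07 did not pass. Without the filter on low counts BCL2, MCL1, CCND3 and MYC lost their edgeR calls at Jurkat day 10, at adjusted p-values from 0.155 to 0.29. That setting called 0 of all genes there, so the loss is not particular to these genes.

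Among 18 other receptor chains, 15 were tested in the 4-comparison mean, of which 2 were lower and 2 higher, against 12.3% lower and 10.7% higher among all genes. IL9R, the chain that binds interleukin-9 and pairs with the gamma chain, fell by -0.80 ± 0.06 (adjusted p = 7e-07). Its Jurkat libraries had 30.7 to 34.4 CPM with sh-NC and 19.4 to 25.4 with sh-SH2D1A, and its 6T-CEM libraries 6.44 to 10.3 and 2.83 to 6.02. The Jurkat day 8 call of IL9R, at -0.36 ± 0.09 (adjusted p = 0.0375), was lost without each of the 4 libraries of that table in turn, at adjusted p-values up to 0.207. IL6ST, the gp130 chain, fell by -0.44 ± 0.07 (adjusted p = 0.000482). IL2RA rose by 1.33 ± 0.35 (adjusted p = 0.0142) at a level that did not exceed 0.83 CPM. Without 6T-CEM day 10 sh-SH2D1A replicate 2 it rose by 1.19 and was no longer called. It did not pass with edgeR over the Jurkat days alone (1.28, adjusted p = 0.109) or the 6T-CEM days alone (1.38, adjusted p = 0.0896). IFNAR2, an interferon receptor chain, rose by 0.18 ± 0.03 (adjusted p = 0.0012). Without 6T-CEM day 5 neither passed with edgeR, at 1.12 for IL2RA (adjusted p = 0.0888) and 0.10 for IFNAR2 (adjusted p = 0.0992).

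Of 8 ligand genes 4 were tested, and TSLP, whose product signals through IL7R with a second chain, fell by -0.38 ± 0.08 (adjusted p = 0.00297). Of the 6 other JAK and STAT genes reported here, 0 passed in the mean with edgeR or DESeq2, with a median change of 0.013. With edgeR 1 had an unadjusted p under 0.05, and no share of all genes was counted at that threshold. In 6T-CEM at day 10, 2 of them passed as higher with edgeR, where 6.61% of all genes tested did. They were STAT2 (0.29 ± 0.06, adjusted p = 0.0129) and STAT6 (0.15 ± 0.04, adjusted p = 0.0265), which encode transcription factors of interferon and interleukin-4 signalling. Neither call held in edgeR with no filter on low counts (adjusted p = 0.0753 for STAT2 and 0.0818 for STAT6). Both were also lost in the edgeR fit of all 16 libraries (adjusted p = 0.0508 and 0.493).

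Of 18 other inhibitors of the pathway, 5 were lower in the mean and none was higher, with a median of -0.02, where 23% of all genes passed. They were the phosphatases PTPN2 (-0.33 ± 0.05, adjusted p = 0.000222) and PTPN6 (-0.29 ± 0.07, adjusted p = 0.0105), SOCS5 (-0.28 ± 0.08, adjusted p = 0.0257), CBLB, a ubiquitin ligase (-0.19 ± 0.06, adjusted p = 0.0244), and the phosphatase PTPN1 (-0.097 ± 0.03, adjusted p = 0.0267). Without 6T-CEM day 5 neither SOCS5 (adjusted p = 0.150) nor CBLB (adjusted p = 0.0661) passed with edgeR. The SOCS5 and CBLB calls were each lost in 7 of the 16 fits with 1 library left out, at adjusted p-values up to 0.079 and 0.0744. Of 13 transcription factors that act on IL7R, 6 were lower and 1 was higher, against 12.3% and 10.7% of all genes. GATA3 fell by -0.44 ± 0.03 (adjusted p = 3.4e-07), NOTCH1 by -0.31 ± 0.04 (adjusted p = 0.000177) and ETS1 by -0.20 ± 0.04 (adjusted p = 0.000909). KLF2 (-0.42 ± 0.08, adjusted p = 0.00133), GFI1 (-0.23 ± 0.06, adjusted p = 0.0146) and RUNX3 (-0.18 ± 0.06, adjusted p = 0.0429) also fell. TCF7 rose by 0.23 ± 0.03 (adjusted p = 0.00015), with changes of 0.52 and 0.50 in Jurkat and of 0.04 and -0.13 in 6T-CEM, the last a fall that passed (adjusted p = 0.0368).

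Among the genes whose changes across the 4 comparisons lay closest to those of STAT5A were DNTT and SPINK2, at Euclidean distances of 0.57 and 0.58 on the log2 scale among 13620 genes with a mean of at least 1 CPM. DNTT encodes the terminal deoxynucleotidyl transferase of lymphocyte precursors and changed by -0.86, -0.26, -0.40 and -1.44 at Jurkat days 8 and 10 and 6T-CEM days 5 and 10. The closest to STAT5B were TMTC4, STON1 and PLCD1, at distances of 0.11, 0.12 and 0.12. These distances describe 4 values per gene and carry no test.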

How the data were processed

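Deposited by the authors were 4 tables of counts per Ensembl gene, one for each line and day, whole numbers with no normalisation. Per the submitters' processing notes HISAT2 2.2.0, StringTie and hg38 were used. The annotation, strand setting and counting step are not given in these sources. Libraries were TruSeq preparations of total RNA, per the labels' protocols.

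Each table was fitted alone with edgeR 4.0.16 in R 4.3.3: filterByExpr with a minimum count of 10, TMM scaling, glmQLFit with glmQLFTest, and Benjamini-Hochberg adjustment over every gene that entered the fit. A gene was called where its adjusted p lay under 0.05. One model of the 16 libraries, with a mean for each of the 8 groups, gave the mean change and the differences between lines, days and controls. Standard errors are the absolute log2 change over the square root of F. Levels are CPM scaled by TMM over the 16 libraries, and levels per kb divide by the exon bases of GENCODE 29. The libraries were not treated as pairs: same-numbered libraries deviated from their groups with correlations of 0.005 to 0.098. Alternatives were DESeq2 1.42.0 (size factors and Wald test), other filters, the replicate number as a block, 1 joint fit and each library left out in turn, which assumes that the single library remaining in an arm varies as the rest do. The standard errors include the estimated spread between libraries, and the floors cover counting error only.

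The 10 genes and all lists were chosen with earlier results of these data known. Text names all 10 genes in each comparison, SH2D1A, genes overlapping one of the 10, up to 4 genes per list and comparison with the lowest adjusted p among those called, and the 3 genes nearest to each gene called in 2 or more comparisons. CCND2, FOXP3, PTPN1, GFI1 and RUNX3 in the mean, and the values of named genes outside their own calls, were added after they had been seen. Some genes of the lists are not reported here.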

Additional observations from a re-analysis of the deposited data

Results flagged for a closer look

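Genes of the lists whose change differed between the lines at day 10 by a test of the difference itself in the edgeR fit of 16 libraries are given here. None of the 10 genes did so. At day 10 the Jurkat minus 6T-CEM difference was 0.80 ± 0.09 for MYC (adjusted p = 0.000601), which changed by 0.74 in Jurkat and -0.07 in 6T-CEM, and 0.63 ± 0.09 for TCF7 (adjusted p = 0.00428), which changed by 0.50 and -0.13. The TCF7 call was lost without 6T-CEM day 10 sh-NC replicate 2 (adjusted p = 0.057). KLF2 differed by 1.28 ± 0.22 (adjusted p = 0.0123), at 10.2 to 11.99 CPM in every Jurkat day 10 library and at 30.4 and 34.5 against 11.8 and 14.6 CPM in 6T-CEM. GATA3 differed by 0.54 ± 0.09 (adjusted p = 0.0121), with changes of -0.11 and -0.66. Leaving out 1 library ended the KLF2 call in 4 fits (6T-CEM day 10 sh-NC replicate 2 and sh-SH2D1A replicate 1, Jurkat day 10 replicate 2 of either arm), at adjusted p-values up to 0.0998, and the GATA3 call in 7 fits, up to 0.101.

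BCL6 differed between the lines by -1.38 ± 0.27 (adjusted p = 0.025), with changes of -0.27 in Jurkat and 1.11 in 6T-CEM, and the call was lost without each of the 8 day 10 libraries in turn (adjusted p up to 0.145). IL21R differed by -3.06 ± 0.66 (adjusted p = 0.0464) at levels between 0.618 and 3.81 CPM at day 10, and the call was lost in 12 such fits (adjusted p up to 0.226).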

How the results depend on the processing

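The 10 genes gave 7 calls in the mean change under every alternative tool and filter. Over the Jurkat days alone 5 passed, where 2546 of all 22032 genes did. Over the 6T-CEM days alone 6 passed, where 3439 of all genes did. Without 6T-CEM day 5 the count was 5, where 3179 of all genes passed. These last 3 settings were chosen after seeing the data. Counts below are of the 10 genes first and of all genes after them. With the DESeq2 Wald test they were 4 at Jurkat day 10, 2 and 1118 at 6T-CEM day 5, 6 at 6T-CEM day 10, 1 and 443 in the line difference, 62 genes in the Jurkat day difference, 1 and 602 in the 6T-CEM day difference, and 2 and 1561 between the days of Jurkat sh-NC. With no filter they were 1 and 873 at Jurkat day 8, 0 and 0 at Jurkat day 10, 1099 genes at 6T-CEM day 10, 1 in the line difference, 3 genes in the Jurkat day difference, and 1 each in the 6T-CEM day difference and between Jurkat sh-NC days. With the replicate block they were 5 and 1423 at Jurkat day 10, 3 and 2188 at 6T-CEM day 5, and 1 in the line difference. They were 297 genes in the 6T-CEM day difference, and 1 and 1237 between Jurkat sh-NC days. Whether same-numbered libraries share a batch is not stated in the labels and was not tested. Beyond the calls of the report, PIM1, IL2RG, JAK1 and IL7R passed with the block at Jurkat day 10. SOCS2 and IL7R did so at 6T-CEM day 5. The adjusted p-values of these edgeR calls ran from 0.0106 to 0.0438. With all 16 libraries in 1 fit they were 1323 genes at Jurkat day 8, 5 and 3108 at 6T-CEM day 5 and 916 genes at 6T-CEM day 10. The mean change held 2546 genes over the Jurkat days and 3179 without 6T-CEM day 5, against 5063. The causes were not tested.

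Leaving out 1 library gave, for the 10 genes and for all genes, 2 to 3 and 633 to 2978 at Jurkat day 8, 1 to 2 and 557 to 979 at Jurkat day 10, 0 to 3 and 298 to 2865 at 6T-CEM day 5, 2 to 4 and 2004 to 2225 at 6T-CEM day 10, and 4063 to 5925 genes in the mean. It gave 0 to 1 and 67 to 373 in the line difference, 0 to 0 and 0 to 7 in the Jurkat day difference, and 0 to 1 and 24 to 1684 in the 6T-CEM day difference. Between sh-NC groups it gave 4 to 7 and 5722 to 9089 for the lines, 0 to 1 and 94 to 1614 for the Jurkat days, and 4 to 7 and 6505 to 9560 for the 6T-CEM days.

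The mean change turned sign for JAK1 with DESeq2 size factors (0.0010) and the Wald test (0.0010) and over the 6T-CEM days (0.17) and for TCF7 over the 6T-CEM days (-0.050). The CISH difference between Jurkat sh-NC days was -0.00057 with no filter and -0.010 with the block. With 1 library left out, uncalled log2 values spanned 0 as follows. CISH ran from -0.013 to 0.33 at 6T-CEM day 10, from -0.047 to 0.47 at Jurkat day 10, from -0.20 to 0.31 in the line difference, from -0.31 to 0.20 and from -0.27 to 0.11 in the Jurkat and 6T-CEM day differences, and from -0.28 to 0.23 between Jurkat sh-NC days. JAK3 ran from -0.18 to 0.16 at Jurkat day 8, from -0.37 to 0.0045 in the line difference and from -0.012 to 0.37 between Jurkat sh-NC days. JAK1 ran from -0.029 to 0.024 in the mean and from -0.066 to 0.11 between sh-NC lines. SOCS2 ran from -0.077 to 0.17 at Jurkat day 10, PIM1 from -0.18 to 0.071 in the line difference and from -0.11 to 0.27 in the 6T-CEM day difference, IL7R from -0.30 to 0.0015 in the latter, and, between Jurkat sh-NC days, IL4R from -0.050 to 0.20 and STAT5B from -0.0056 to 0.13.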
